A study of Homo sapiens with 24 samples.

Results

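Interferon-stimulated genes were described in 2 human B-cell precursor acute lymphoblastic leukaemia lines, MUTZ-5 and MHH-CALL4, after treatment with the BET bromodomain inhibitor JQ1. A list of 39 such genes had been drawn up by name, and a gene counted as measured where an array row carried its symbol and no other. By that rule 34 of the 39 genes were measured, out of 14232 genes in all. IFITM2 and IFITM3 share their rows with each other, TRIM5 shares its row with TRIM22, USP18 shares its row with USP41P, and no annotated row carries STAT2, so these 5 genes were not analysed here. Cells of each line were exposed to 500 nM JQ1 or to DMSO, the solvent, for 8 h. Each of the 4 groups (MUTZ-5 with JQ1, MHH-CALL4 with JQ1, MUTZ-5 with DMSO, MHH-CALL4 with DMSO) had 3 samples, and total RNA of each was hybridised to 1 array. The labels name no interferon among the treatments. Separate cultures are not stated for the 3 samples of a group, so each p-value rests on a spread between samples that could be technical. Both lines are established cell lines, each grown out of 1 patient's leukaemia.

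Type I interferons bind a cell surface receptor made of IFNAR1 and IFNAR2. The receptor's kinases, JAK1 and TYK2, start a signal that leads to the complex ISGF3, which holds STAT2 and IRF9. ISGF3 binds the interferon-stimulated response element (ISRE) in promoters of genes that block viral entry, sense or destroy viral RNA, and tag proteins with the ubiquitin-like protein ISG15. IRF7, itself an interferon-stimulated gene, drives further interferon production. BET bromodomain inhibitors act on readers of acetylated chromatin, on which many actively transcribed genes depend.

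Upstream sequences of 6 members are shown because they carry the element that the family is named for, and because they belong to genes that fell (IFIT5, IFITM1, ISG20, OAS3), rose (IFI6) or passed the test in neither line (ISG15, chosen after its values were seen). Each is the 250 bases before the transcription start in RefSeq's GRCh38.p14 annotation, 5′ to 3′ on the gene's strand. Capitals mark the core of the ISRE, which reads GAAA, any 2 bases and GAAA again, or TTTC, any 2 bases and TTTC on the other strand.
IFI6 upstream region, chr1:27672193-27672442, minus strand: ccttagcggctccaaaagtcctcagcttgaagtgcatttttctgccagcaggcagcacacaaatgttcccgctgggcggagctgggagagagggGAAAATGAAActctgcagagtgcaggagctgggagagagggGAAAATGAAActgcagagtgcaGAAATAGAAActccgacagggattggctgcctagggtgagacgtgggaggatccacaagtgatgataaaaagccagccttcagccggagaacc
IFIT5 upstream region, chr10:89414318-89414567, plus strand: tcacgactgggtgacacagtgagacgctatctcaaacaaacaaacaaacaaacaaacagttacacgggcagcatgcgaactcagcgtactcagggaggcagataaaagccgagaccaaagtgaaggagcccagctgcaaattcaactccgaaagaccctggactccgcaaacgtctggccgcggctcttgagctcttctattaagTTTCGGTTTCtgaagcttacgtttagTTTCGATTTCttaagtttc
IFITM1 upstream region, chr11:313790-314039, plus strand: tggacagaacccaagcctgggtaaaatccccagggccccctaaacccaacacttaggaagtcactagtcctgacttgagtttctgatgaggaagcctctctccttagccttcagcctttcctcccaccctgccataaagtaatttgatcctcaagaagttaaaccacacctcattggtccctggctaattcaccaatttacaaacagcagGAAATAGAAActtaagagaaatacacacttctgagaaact
ISG20 upstream region, chr15:88638766-88639015, plus strand: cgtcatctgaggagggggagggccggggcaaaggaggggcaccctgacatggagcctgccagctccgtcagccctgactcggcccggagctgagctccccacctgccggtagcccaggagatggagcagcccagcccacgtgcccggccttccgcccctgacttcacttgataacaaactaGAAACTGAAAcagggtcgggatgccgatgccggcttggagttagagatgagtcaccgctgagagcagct
OAS3 upstream region, chr12:112938224-112938473, plus strand: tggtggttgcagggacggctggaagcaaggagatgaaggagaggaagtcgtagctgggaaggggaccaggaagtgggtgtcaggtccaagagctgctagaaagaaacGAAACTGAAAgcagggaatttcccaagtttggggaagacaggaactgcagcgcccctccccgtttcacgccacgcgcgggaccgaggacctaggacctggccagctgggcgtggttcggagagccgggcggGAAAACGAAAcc
ISG15 upstream region, chr1:1013247-1013496, plus strand: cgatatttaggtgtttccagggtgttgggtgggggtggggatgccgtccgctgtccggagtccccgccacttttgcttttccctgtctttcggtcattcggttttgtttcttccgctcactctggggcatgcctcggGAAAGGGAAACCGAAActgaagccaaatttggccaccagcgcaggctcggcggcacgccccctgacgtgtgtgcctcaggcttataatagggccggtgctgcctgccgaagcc
IFI6 had 3 matches, 2 of them inside a repeated stretch. Within the printed bases IFIT5 and OAS3 had 2 matches each, and those of ISG15 overlapped. IFITM1 and ISG20 had 1 each there. A further match crossed the start site in IFIT5 (first base at -4) and in IFITM1 (first base at -6), and these are not in capitals.

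**Figure D1:**
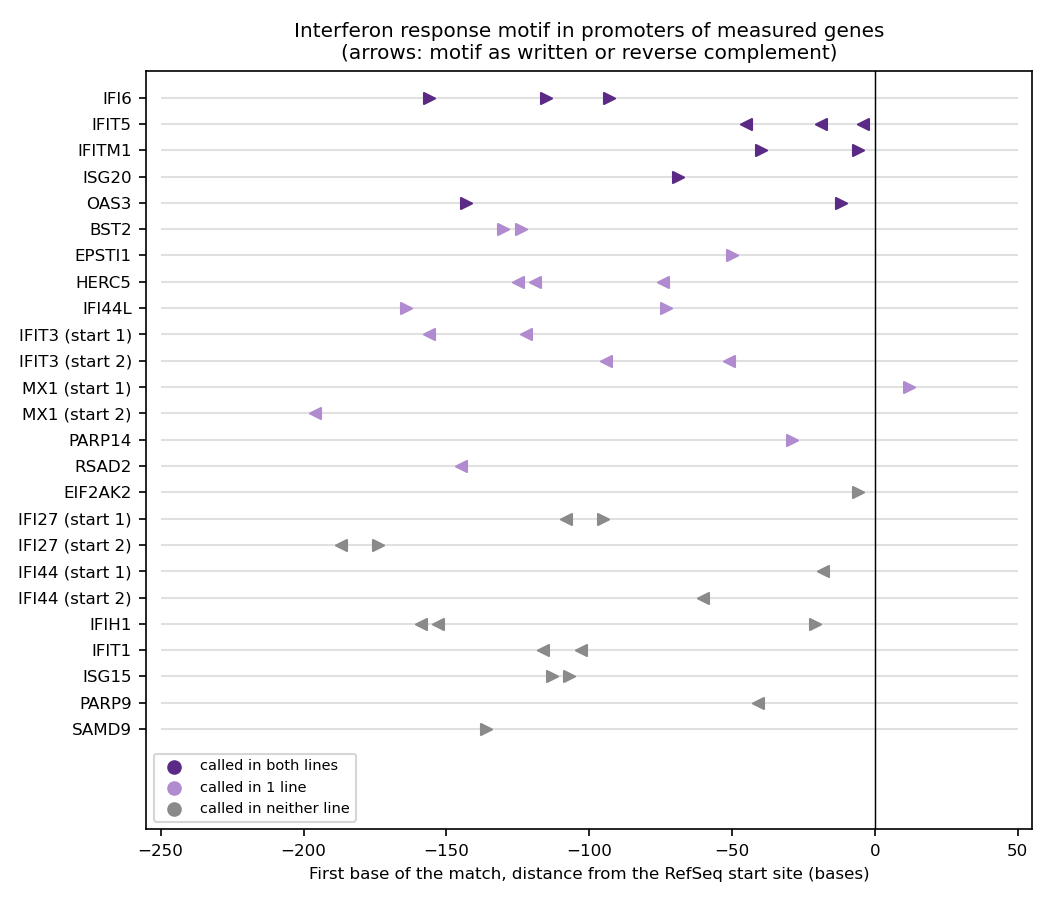
First base of each ISRE core match in the RefSeq promoters of the members that had one, as distance in bases from the transcription start (x axis, 250 bases before to 50 after), with 1 row per start site and arrows for the strand. A match was found for 21 of the 28 members with a promoter entry.

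Over the window from 250 bases before to 50 after the start, the ISRE core on either strand stood in the promoters of 21 of the 28 measured members that the RefSeq table holds (75.0%). Among all genes of that table, 4.38% held it, and among all 35116 promoters of the same length, 3.57%. The STAT-type element TTCNNNGAA, also read on both strands, stood in 9 of the 28 members (32.1%), against 9.38% of all genes. The ISRE core was present in 5 of 5 members that passed the test in both lines, in 8 of 9 that passed it in 1 line and in 8 of 14 that passed it in neither. The member without it among the 9 was IRF9, and the members without it among the 14 were CMPK2, HERC6, IFI35, OAS1, SAMD9L and XAF1. These are matches of letters in a window and were not tested as binding sites. IFIT2, TRIM22, IRF7, OASL, OAS2 and MX2 have no entry in the table.

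Array values are log2 intensities, so a difference of 1 is a change of 2-fold. Levels were not compared between genes, apart from marker lists and the array or gene medians. The 12 array medians lay between 8.46 and 8.57. B lineage genes averaged 11.43 to 11.89 over their 8 measured members, and the list averages were 6.55 to 6.88 for T and NK cell genes, 7.16 to 7.46 for myeloid and dendritic cell genes and 7.44 to 7.69 for stromal genes. Single genes departed from these averages. With DMSO in MUTZ-5 and MHH-CALL4, NKG7 averaged 9.66 and 10.47, PDGFRB 9.64 and 9.85 and CD68 9.83 and 9.71. The B lineage gene RAG1 averaged 7.46 and 7.58. At most 1 gene of each non-B list passed the test under JQ1 in either line. NKG7 fell 1.56-fold in MUTZ-5 and 1.95-fold in MHH-CALL4, PDGFRB 1.58-fold and 1.81-fold, and LYZ 1.78-fold in MHH-CALL4 alone. The B lineage average was 11.43 to 11.47 with JQ1 against 11.66 to 11.78 with DMSO in MUTZ-5, and 11.49 to 11.53 with JQ1 against 11.77 to 11.89 with DMSO in MHH-CALL4, and its part in the results was not tested. As checks of JQ1 exposure, MYC fell 2.50-fold in MUTZ-5 and 4.15-fold in MHH-CALL4, and HEXIM1 rose 2.84-fold and 3.38-fold. Along the main axis of variation within groups, 2 arrays stood apart, MUTZ-5 with DMSO replicate 3 and MHH-CALL4 with JQ1 replicate 3. The main counts are also given without both arrays. An array averages over all cells of a culture, so fewer cells with a transcript and less transcript per cell cannot be told apart.

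Under JQ1 a part of the interferon-stimulated genes fell and a few rose. The largest losses, about 2-fold in both lines, were those of IFITM1 (a membrane protein that blocks virus entry), OAS3 (a sensor of double-stranded RNA) and TRIM22 (an antiviral ubiquitin ligase), and OAS2, of the same family as OAS3, fell 1.70-fold in MUTZ-5 and 2.10-fold in MHH-CALL4. IRF7 and IFI6 rose 1.60-fold to 1.74-fold in both lines. In MUTZ-5, 13 of 34 members (38.2%) passed the test, 3 higher and 10 lower, against 22.0% of all genes (9.06% higher, 13.0% lower). In MHH-CALL4, 13 of 34 (38.2%) passed, 4 higher and 9 lower, against 28.5% of all genes (11.0% higher, 17.5% lower). The test was limma's moderated test across all genes with Benjamini-Hochberg adjustment, at a threshold of 0.05. JQ1 and DMSO arrays did not overlap for 20 members in MUTZ-5, against 32.6% of all genes, and for 18 in MHH-CALL4, against 43.7%. The median member differed by -0.15 in MUTZ-5 and -0.19 in MHH-CALL4, and the median gene by 0.0084 and 0.0065. With the arrays that stood apart left out, 12 members passed in MUTZ-5 and 15 in MHH-CALL4, against 25.3% and 30.5% of all genes. Among genes whose mean level reached the median, 12 of 22 members passed in MUTZ-5, against 42.8% of all such genes, and 11 of 22 in MHH-CALL4, against 47.2%, so there the members' share in MHH-CALL4 lay near that of all genes.

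In both lines 8 members passed, 23.5% of the members, against 16.5% of all genes, and 10 members without the arrays that stood apart, against 17.6%. The 8 moved the same way in both lines, IFITM1, OAS2, OAS3, TRIM22, IFIT5 and ISG20 lower and IRF7 and IFI6 higher. These 8 genes kept their calls in both lines under every alternative setting that gave a value, and ISG20 was not among the genes left by the filter on level. A further 5 members passed in MUTZ-5 alone (EPSTI1, IFI44L, PARP14 and BST2 lower, HERC5 higher) and 5 in MHH-CALL4 alone (IFIT3, MX1 and OASL lower, IRF9 and RSAD2 higher). The other 16 passed in neither line.

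**Figure D2:**
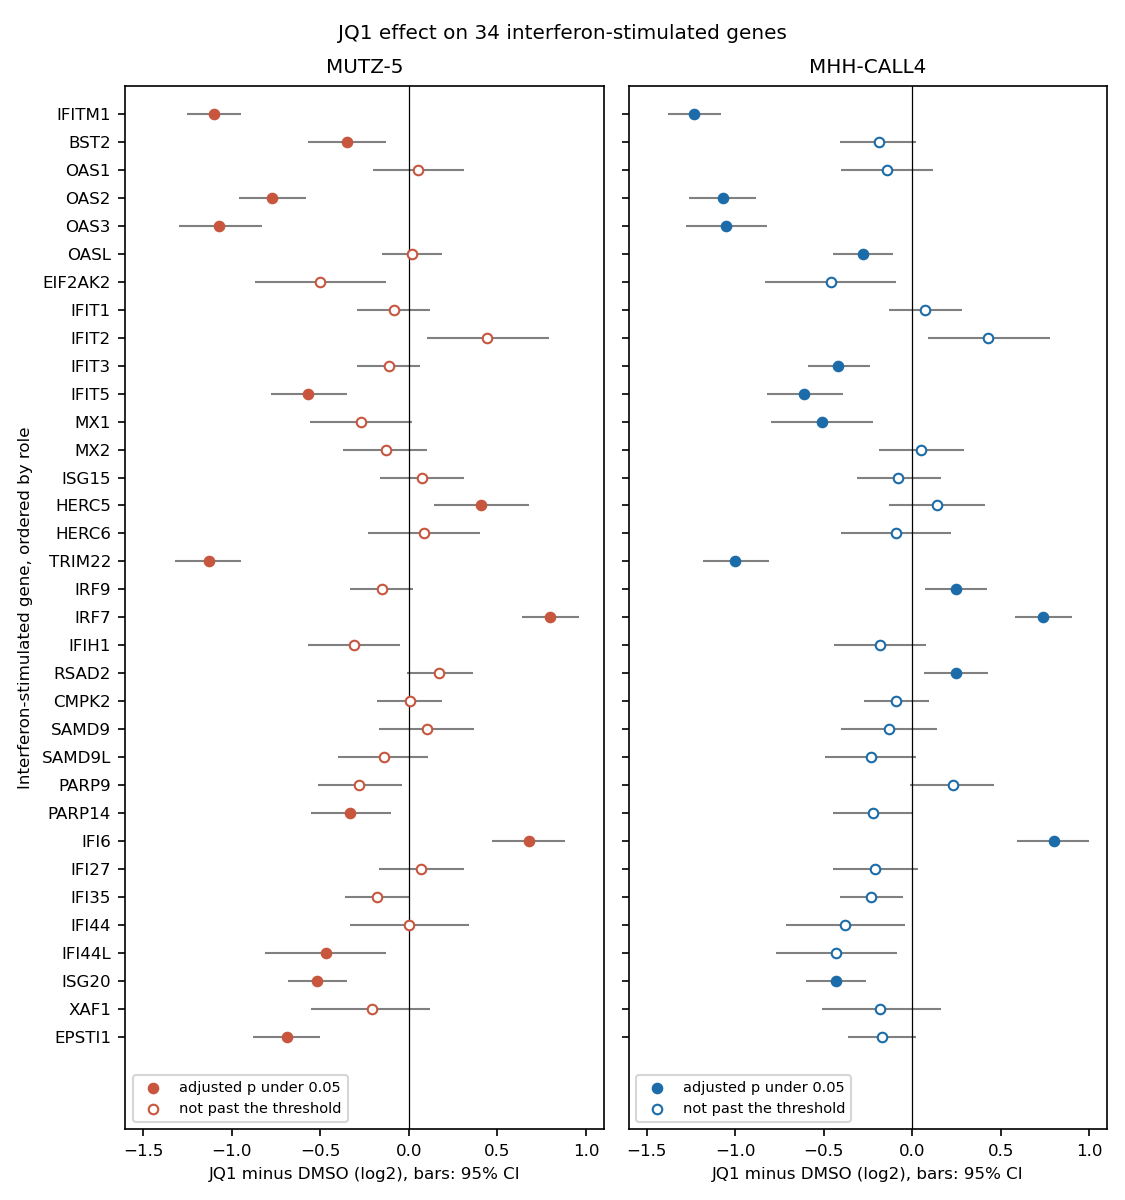
Difference under JQ1 (JQ1 minus DMSO, log2, x axis) of the 34 measured members in MUTZ-5 and MHH-CALL4. Points are limma estimates, bars their 95% confidence intervals, and filled points passed the test; IFITM1, OAS3, TRIM22 and OAS2 lie farthest to the left, IRF7 and IFI6 farthest to the right.

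Among the membrane-bound antiviral factors, IFITM1 read 11.63, 11.57 and 11.55 with JQ1 against 12.68, 12.63 and 12.75 with DMSO in MUTZ-5. In MHH-CALL4 it read 11.18, 11.11 and 11.10 with JQ1 against 12.27, 12.41 and 12.40 with DMSO. All JQ1 arrays lay about a full log2 unit below all DMSO arrays of their line. IFITM1 thus fell 2.14-fold in MUTZ-5 (log2 difference -1.10 ± 0.068 SE, limma adjusted p = 1.7e-07) and 2.35-fold in MHH-CALL4 (-1.23 ± 0.068, limma adjusted p = 4.2e-08). IFITM1 has a row of its own, whereas its relatives IFITM2 and IFITM3 share theirs. Whether the IFITM1 row also carries signal of those relatives was not tested. BST2 (tetherin), which holds budding virus particles at the cell surface, read 9.81, 9.59 and 9.61 with JQ1 against 10.01, 9.87 and 10.20 with DMSO in MUTZ-5. These groups did not overlap, and BST2 fell 1.28-fold there (limma adjusted p = 0.022). The BST2 call in MUTZ-5 was lost without DMSO replicate 3 (-0.27, limma adjusted p = 0.079) and without each of 3 other arrays of that line. In MHH-CALL4 the BST2 difference of -0.19 did not pass (limma adjusted p = 0.18), with 8.87, 8.65 and 8.83 under JQ1 against 8.88, 9.08 and 8.97 under DMSO, which did not overlap.

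The oligoadenylate synthetases, which are switched on by double-stranded RNA and activate RNase L, did not move as a block. OAS3 read 8.81, 8.73 and 8.73 with JQ1 against 9.81, 9.68 and 9.97 with DMSO in MUTZ-5. Its values in MHH-CALL4 were 7.90, 8.04 and 8.32 with JQ1 against 9.09, 9.24 and 9.07 with DMSO. JQ1 and DMSO arrays did not overlap in either line, and OAS3 fell 2.09-fold in MUTZ-5 (limma adjusted p = 1.1e-05) and 2.07-fold in MHH-CALL4 (limma adjusted p = 8.9e-06). OAS2 read 10.15, 10.07 and 9.98 with JQ1 against 10.80, 10.74 and 10.97 with DMSO in MUTZ-5, and 10.02, 10.02 and 10.07 with JQ1 against 11.00, 11.26 and 11.06 with DMSO in MHH-CALL4. It fell 1.70-fold in MUTZ-5 (limma adjusted p = 3e-05) and 2.10-fold in MHH-CALL4 (limma adjusted p = 1.2e-06), again without overlap.

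OAS1, next to OAS3 on chromosome 12, read 9.76, 9.56 and 9.64 with JQ1 against 9.65, 9.43 and 9.72 with DMSO in MUTZ-5, and 8.04, 8.24 and 8.34 with JQ1 against 8.28, 8.59 and 8.16 with DMSO in MHH-CALL4. Its groups overlapped in both lines, and its differences of 0.054 and -0.14 did not pass (limma adjusted p = 0.85 and 0.44). OASL, a relative without synthetase activity, fell by 0.28 on the log2 scale in MHH-CALL4 (limma adjusted p = 0.017), a call lost on leaving out DMSO replicate 2, JQ1 replicate 1 or JQ1 replicate 2 of that line. Its difference in MUTZ-5 was 0.018. EIF2AK2, the RNA-activated kinase PKR, differed by -0.50 in MUTZ-5 and -0.46 in MHH-CALL4 without overlap, yet did not pass in either line (limma adjusted p = 0.054 and 0.062). Its JQ1 arrays spread widely, at 10.45, 10.37 and 9.96 in MUTZ-5 and 10.49, 10.27 and 9.88 in MHH-CALL4, against DMSO arrays of 10.52, 10.67 and 11.08 in MUTZ-5 and 10.70, 10.66 and 10.65 in MHH-CALL4.

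The antiviral ubiquitin ligase TRIM22 read 10.74, 10.61 and 10.49 with JQ1 against 11.67, 11.75 and 11.81 with DMSO in MUTZ-5. The same gene read 10.95, 10.88 and 10.82 with JQ1 against 11.83, 12.01 and 11.80 with DMSO in MHH-CALL4. TRIM22 fell 2.19-fold in MUTZ-5 (limma adjusted p = 7.9e-07) and 1.99-fold in MHH-CALL4 (limma adjusted p = 1.8e-06), with no overlap in either line. ISG20, an exonuclease that degrades RNA, read 8.03, 8.02 and 8.16 with JQ1 against 8.67, 8.59 and 8.49 with DMSO in MUTZ-5, and 7.86, 7.86 and 8.00 with JQ1 against 8.31, 8.41 and 8.30 with DMSO in MHH-CALL4. Again all JQ1 arrays were the lower ones, and ISG20 fell 1.43-fold in MUTZ-5 (limma adjusted p = 0.00028) and 1.35-fold in MHH-CALL4 (limma adjusted p = 9e-04).

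**Figure D3:**
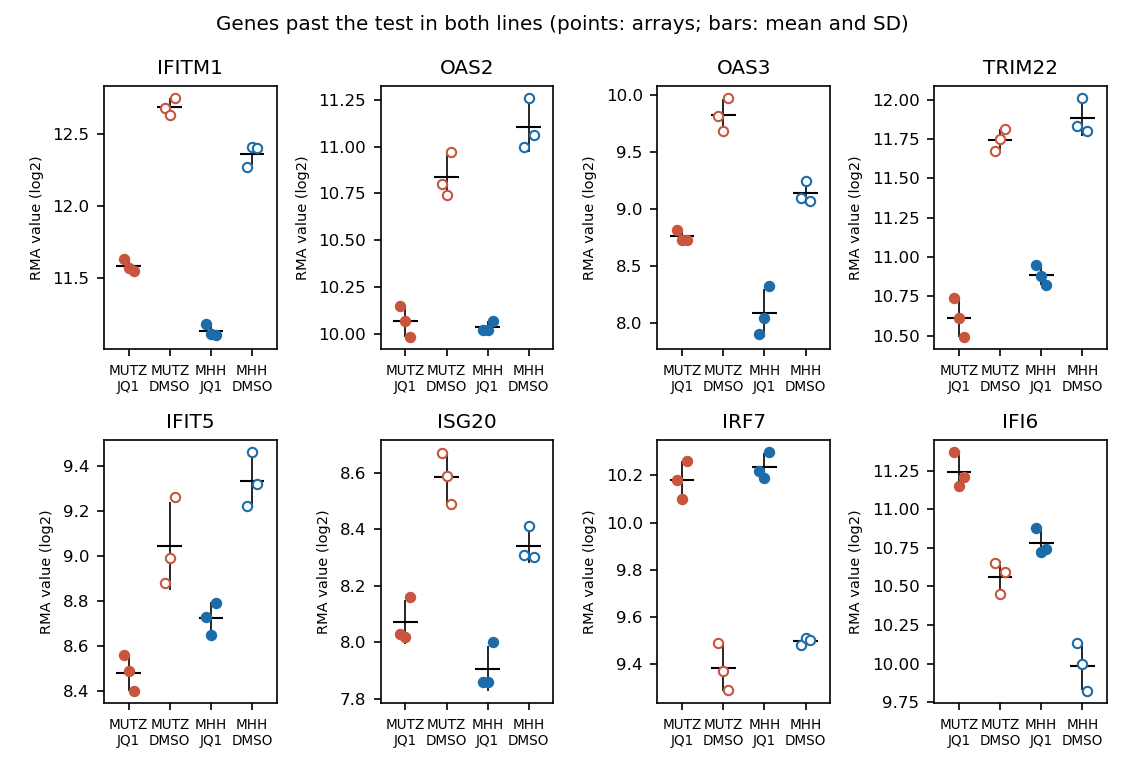
Log2 intensity (y axis) on each of the 12 arrays of the 8 members that passed the test in both lines, 1 panel per gene, with JQ1 left of DMSO within each line; points are arrays, and lines show the group mean and SD. In IFITM1, OAS2, OAS3, TRIM22, IFIT5 and ISG20 every JQ1 array lies below every DMSO array of its line, and in IRF7 and IFI6 above.

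The IFIT proteins bind viral RNA, and the 4 IFIT genes of the list all lie on chromosome 10. IFIT5 read 8.56, 8.49 and 8.40 with JQ1 against 8.88, 8.99 and 9.26 with DMSO in MUTZ-5, and 8.73, 8.65 and 8.79 with JQ1 against 9.22, 9.46 and 9.32 with DMSO in MHH-CALL4. It fell 1.48-fold in MUTZ-5 (limma adjusted p = 0.001) and 1.52-fold in MHH-CALL4 (limma adjusted p = 0.00048). IFIT3 fell in MHH-CALL4, where 9.12, 9.10 and 9.15 with JQ1 stood against 9.43, 9.67 and 9.52 with DMSO (1.34-fold, limma adjusted p = 0.0018). In MUTZ-5 IFIT3 had 8.12, 7.98 and 8.07 with JQ1 against 8.10, 8.11 and 8.29 with DMSO, overlapping groups whose difference of -0.11 did not pass (limma adjusted p = 0.44). IFIT2 differed upward by 0.44 in MUTZ-5 and 0.43 in MHH-CALL4 but passed in neither line (limma adjusted p = 0.066 and 0.058). IFIT1 differed by -0.086 in MUTZ-5 and 0.075 in MHH-CALL4 and passed in neither.

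MX1 and MX2 encode dynamin-like GTPases that trap viral components. MX1 read 7.46, 7.35 and 7.08 with JQ1 against 7.63, 7.55 and 7.51 with DMSO in MUTZ-5, a difference of -0.27 that did not pass although the groups did not overlap (limma adjusted p = 0.20). In MHH-CALL4 it read 7.75, 8.02 and 8.26 with JQ1 against 8.41, 8.74 and 8.41 with DMSO and fell 1.42-fold (limma adjusted p = 0.012). The MX1 call was lost with the extended array summaries (-0.21, limma adjusted p = 0.17), without DMSO replicate 2 (-0.40, 0.067) and without JQ1 replicate 1 (-0.38, 0.053). MX2 differed by -0.13 in MUTZ-5 and 0.05 in MHH-CALL4, and neither passed.

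In the ISG15 system, ISG15 itself read 8.57, 8.64 and 8.68 with JQ1 against 8.60, 8.76 and 8.32 with DMSO in MUTZ-5, and 8.44, 8.62 and 8.69 with JQ1 against 8.68, 8.77 and 8.52 with DMSO in MHH-CALL4. Its groups overlapped, and the 95% intervals of its difference ran from -0.16 to 0.31 in MUTZ-5 and from -0.31 to 0.16 in MHH-CALL4. HERC5, the ligase that attaches ISG15 to proteins, rose by 0.41 on the log2 scale in MUTZ-5 (limma adjusted p = 0.029), with 10.25, 10.05 and 9.84 under JQ1 against 9.54, 9.56 and 9.80 under DMSO. That HERC5 call was lost without any 1 of 4 arrays of the line (DMSO replicates 1 and 2, JQ1 replicates 1 and 2). In MHH-CALL4 HERC5 differed by 0.14, and HERC6, its relative, differed by 0.087 in MUTZ-5 and -0.091 in MHH-CALL4, none of which passed.

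Of the transcription factors, IRF7 read 10.18, 10.10 and 10.26 with JQ1 against 9.49, 9.37 and 9.29 with DMSO in MUTZ-5. In MHH-CALL4 IRF7 read 10.22, 10.19 and 10.30 with JQ1 against 9.48, 9.51 and 9.50 with DMSO. Every JQ1 array was above every DMSO array, and IRF7 rose 1.74-fold in MUTZ-5 (limma adjusted p = 5.5e-06) and 1.67-fold in MHH-CALL4 (limma adjusted p = 7.3e-06). IRF9, the DNA-binding subunit of ISGF3, rose by 0.25 on the log2 scale in MHH-CALL4 (limma adjusted p = 0.036), at 10.08, 10.07 and 10.23 with JQ1 against 9.82, 10.00 and 9.82 with DMSO. In MUTZ-5 IRF9 differed by -0.15 and did not pass (limma adjusted p = 0.23), at 10.34, 10.27 and 10.27 with JQ1 against 10.54, 10.34 and 10.46 with DMSO. The IRF9 call in MHH-CALL4 was lost in 6 of 12 fits that left out 1 array, without the pair of arrays that stood apart (0.19, limma adjusted p = 0.10), with the extended summaries and when the line was fitted alone.

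IFI6, a small membrane protein that protects cells from apoptosis, also rose. It read 11.37, 11.15 and 11.21 with JQ1 against 10.65, 10.45 and 10.59 with DMSO in MUTZ-5, and 10.88, 10.72 and 10.74 with JQ1 against 10.13, 10.00 and 9.82 with DMSO in MHH-CALL4. The groups did not overlap, and the rise was 1.60-fold in MUTZ-5 (limma adjusted p = 0.00016) and 1.74-fold in MHH-CALL4 (limma adjusted p = 3.2e-05). With the extended summaries the log2 difference of IFI6 in MHH-CALL4 was 0.47 in place of 0.80, and it still passed. IFI27, its relative, differed by 0.069 in MUTZ-5 and -0.21 in MHH-CALL4 and passed in neither.

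EPSTI1 fell in MUTZ-5, at 6.48, 6.22 and 6.42 with JQ1 against 7.05, 7.09 and 7.06 with DMSO. These arrays were well separated, and the fall was 1.61-fold (limma adjusted p = 7.4e-05). In MHH-CALL4 EPSTI1 read 5.91, 5.77 and 6.05 with JQ1 against 6.04, 6.07 and 6.14 with DMSO, overlapping groups that differed by -0.17 (limma adjusted p = 0.17). With the extended summaries the MUTZ-5 difference of EPSTI1 was -0.39 and still passed. RSAD2 (viperin, which makes a nucleotide that stops viral RNA synthesis) rose by 0.25 in MHH-CALL4 (limma adjusted p = 0.041) and differed by 0.17 in MUTZ-5 (0.19). Its neighbour CMPK2, a nucleotide kinase, differed by 0.0069 in MUTZ-5 and -0.091 in MHH-CALL4.

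The remaining members gave smaller or less even values. PARP14, an ADP-ribosyltransferase, fell by 0.33 in MUTZ-5 (limma adjusted p = 0.039), where PARP9 of the same family differed by -0.28 (0.098). In MHH-CALL4 PARP14 differed by -0.22 and PARP9 by 0.23, and neither passed. IFI44L fell by 0.47 in MUTZ-5 (limma adjusted p = 0.048) and differed by -0.43 in MHH-CALL4 (0.06). The PARP14 and IFI44L calls, like that of RSAD2, were lost under several alternatives. IFIH1 (MDA5, a cytosolic sensor of double-stranded RNA) differed by -0.31 in MUTZ-5 and -0.18 in MHH-CALL4, and XAF1, an antagonist of the apoptosis inhibitor XIAP, by -0.21 and -0.18. IFI44, IFI35, SAMD9 and SAMD9L likewise passed in neither line.

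Members that lie next to each other on a chromosome were set against each other within arrays. This comparison was chosen after seeing the data, and it covered the 9 neighbouring pairs of measured members less than 50000 bases apart. For each pair the JQ1 difference of the second gene minus that of the first was averaged over the lines. This average was tested by an exact two-sided permutation of the arrays within lines, in which the smallest possible p is 0.005. A pair that passed was thus not shown to change unequally in each line. Neighbouring pairs of other genes were not tested, so how common such unequal change is was not measured. Such a ratio within an array shows unequal change, not which gene stayed put. Some partners had low group means, such as IFIT1 (7.13 to 7.51), MX2 (6.99 to 7.32) and RSAD2 (7.02 to 7.46). The array medians were 8.46 to 8.57. Whether a low level limits the change that can be seen in such a partner was not tested. OAS3 moved by -1.12 relative to OAS1 in MUTZ-5 and by -0.91 in MHH-CALL4 (exact permutation p = 0.005, 0.009 adjusted over the 9 pairs). IFIT3 relative to IFIT2 moved by -0.55 in MUTZ-5 and -0.85 in MHH-CALL4, and IFIT5 relative to IFIT1 by -0.48 and -0.68 (exact permutation p = 0.005 each, adjusted 0.009). Unequal change also passed for HERC5 over HERC6 (0.32 in MUTZ-5, 0.23 in MHH-CALL4), SAMD9L over SAMD9 (-0.24 and -0.10), MX1 over MX2 (-0.14 and -0.56) and RSAD2 over CMPK2 (0.17 and 0.34). Their adjusted exact permutation p values were 0.009, 0.009, 0.015 and 0.045. OAS2 relative to OAS3 (0.30 in MUTZ-5, -0.022 in MHH-CALL4) and IFI44 relative to IFI44L (0.47 and 0.048) did not pass (adjusted exact permutation p = 0.13 and 0.23).

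The JQ1 effect in MUTZ-5 was then compared with that in MHH-CALL4 as an interaction. No member passed by limma (0 of 34), against 1.53% of all genes (0.949% higher, 0.583% lower in MUTZ-5), and 6 had an unadjusted p under 0.05. Without the arrays that stood apart it was again 0, against 2.15% of all genes. The most different was EPSTI1, whose effect was lower in MUTZ-5 by 0.52 (interaction -0.52 ± 0.12 SE, limma adjusted p = 0.059, from 0.042 to 0.43 over the alternatives). With DMSO, EPSTI1 averaged 6.08 in MHH-CALL4 and 7.06 in MUTZ-5, below the array medians of 8.46 to 8.57. Whether its low level in MHH-CALL4 limits the fall that can be seen there was not tested. IRF9 followed with an interaction of -0.40 (limma adjusted p = 0.13) and PARP9 with -0.50. OASL, IFIT3 and OAS2 had interactions of 0.30, 0.31 and 0.30 (limma adjusted p = 0.32, 0.32 and 0.39). A difference in response between the lines was therefore not shown for any member by this test, including those that passed in 1 line alone. The interval of the interaction for IFITM1 ran from -0.079 to 0.34, for OAS3 from -0.35 to 0.31 and for IRF7 from -0.17 to 0.29.

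**Figure D4:**
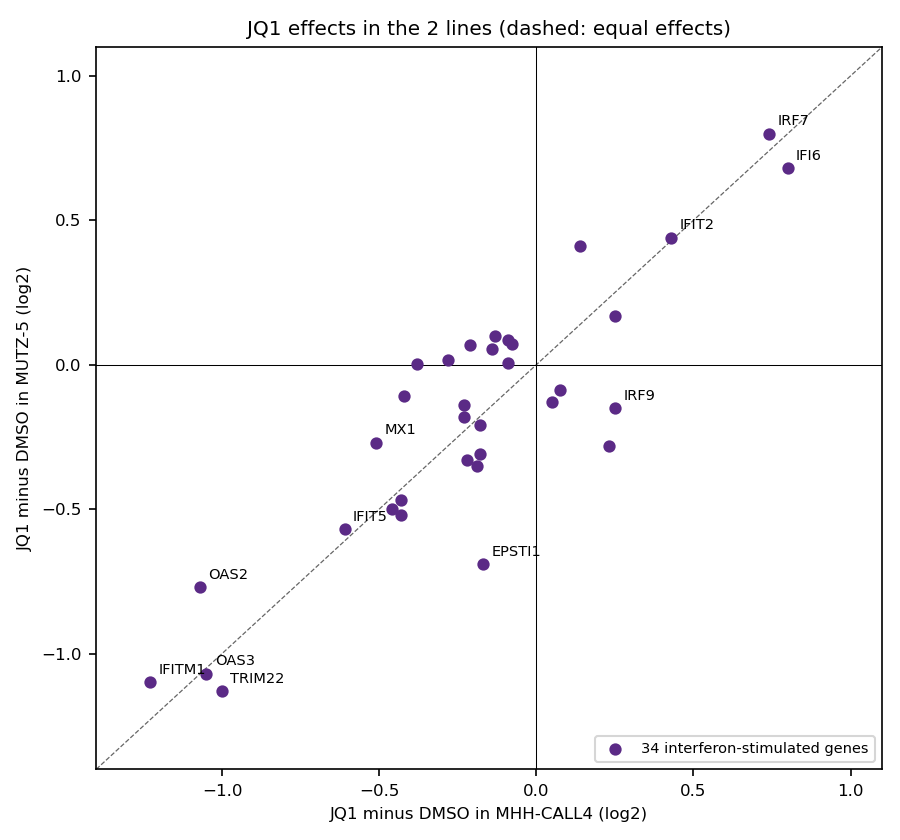
JQ1 effect (JQ1 minus DMSO, log2) of each of the 34 measured members in MUTZ-5 against its effect in MHH-CALL4, 1 point per gene. The 6 genes that fell in both lines lie in the lower left quadrant, IRF7 and IFI6 in the upper right, and EPSTI1 off the diagonal.

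The lines also differed in these genes, with DMSO as well as with JQ1. With DMSO, 15 of 34 members (44.1%) differed between MUTZ-5 and MHH-CALL4, 9 higher and 6 lower in MUTZ-5, against 23.4% of all genes (11.9% higher, 11.5% lower). With JQ1 it was again 15 of 34, 9 higher and 6 lower, against 19.9% of all genes (11.7% higher, 8.25% lower). The arrays of the lines did not overlap for 21 members with DMSO, against 36.2% of all genes, and for 19 with JQ1, against 33.1%. The median member differed by -0.01 with DMSO and 0.049 with JQ1. Without both arrays that stood apart the counts were 16 with DMSO and 18 with JQ1, against 30.5% and 22.4% of all genes. Among genes whose mean level reached the median, 11 of 22 members passed with each treatment, against 34.5% with DMSO and 34.0% with JQ1. With both treatments 9 members passed, all with the same sign. OAS1, BST2, EPSTI1, OAS3, IFI6, IFITM1 and IFI35 were higher in MUTZ-5, and IFIT3 and MX1 lower. The share of all genes that passed between the lines with both treatments was not counted, nor how many of those kept their sign. Whether the shared sign of these 9 members differs from that of other genes was therefore not tested.

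From the values already given, OAS1 was 2.39-fold higher in MUTZ-5 than in MHH-CALL4 with DMSO (log2 difference 1.26 ± 0.12 SE, limma adjusted p = 2.5e-06) and 2.73-fold with JQ1 (limma adjusted p = 6.7e-07). All 6 MUTZ-5 arrays lay above all 6 MHH-CALL4 arrays for OAS1, BST2 and EPSTI1. BST2 was 2.06-fold higher in MUTZ-5 with DMSO (limma adjusted p = 3.2e-06) and 1.85-fold with JQ1 (limma adjusted p = 1.8e-05). EPSTI1 was 1.97-fold higher in MUTZ-5 with DMSO (limma adjusted p = 1.4e-06) and 1.38-fold with JQ1 (limma adjusted p = 0.0015), and the second call was lost with the extended summaries (0.21, limma adjusted p = 0.25). IFIT3 was 2.59-fold lower in MUTZ-5 with DMSO (limma adjusted p = 2.1e-08) and 2.10-fold lower with JQ1 (limma adjusted p = 3.3e-07). MX1 was 1.94-fold lower in MUTZ-5 with DMSO (limma adjusted p = 0.00011) and 1.64-fold lower with JQ1 (limma adjusted p = 0.0014). With the extended summaries the log2 differences of MX1 were -0.46 with DMSO and -0.35 with JQ1 in place of -0.95 and -0.72, and both passed.

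OAS3 was 1.61-fold higher in MUTZ-5 with DMSO and 1.59-fold with JQ1, and IFI6 1.5-fold with DMSO and 1.38-fold with JQ1. The log2 difference of IFI6 with the extended summaries was 0.27 with DMSO and 0.26 with JQ1. OAS2 was 1.2-fold lower in MUTZ-5 with DMSO (limma adjusted p = 0.04), a call lost in 7 of 12 fits that left out 1 array, and differed by 0.033 with JQ1. IRF9 was 1.48-fold higher in MUTZ-5 with DMSO (limma adjusted p = 0.00013) and differed by 0.16 with JQ1, which did not pass. With DMSO but not with JQ1, calls were made for IFI44, OASL and SAMD9L, lower in MUTZ-5, and ISG20, higher there. Those of IFI44 and OASL held under every alternative that gave a value, whereas those of SAMD9L and ISG20 were each lost in 4 of 12 fits that left out 1 array. With JQ1 but not with DMSO, calls were made for PARP9, IFIT1, TRIM22 and RSAD2, lower in MUTZ-5, and HERC5 and SAMD9, higher there. Those of PARP9 and HERC5 held under every alternative, whereas on leaving out 1 array RSAD2 was lost in 8 of 12 fits, TRIM22 in 6, SAMD9 in 3 and IFIT1 in 2. A fit of the JQ1 arrays alone that paired the lines by replicate number, added after seeing the data, called 18 members, against 24.5% of all genes. It lost IFIT1 (limma adjusted p = 0.062). With the replicate number as a block over all arrays, TRIM22 and RSAD2 were lost (limma adjusted p = 0.061 and 0.071). A change of the line difference with treatment is the same interaction as above, which no member passed. ISG15, IRF7, EIF2AK2 and XAF1 were among the members that passed between the lines with neither treatment.

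**Figure D5:**
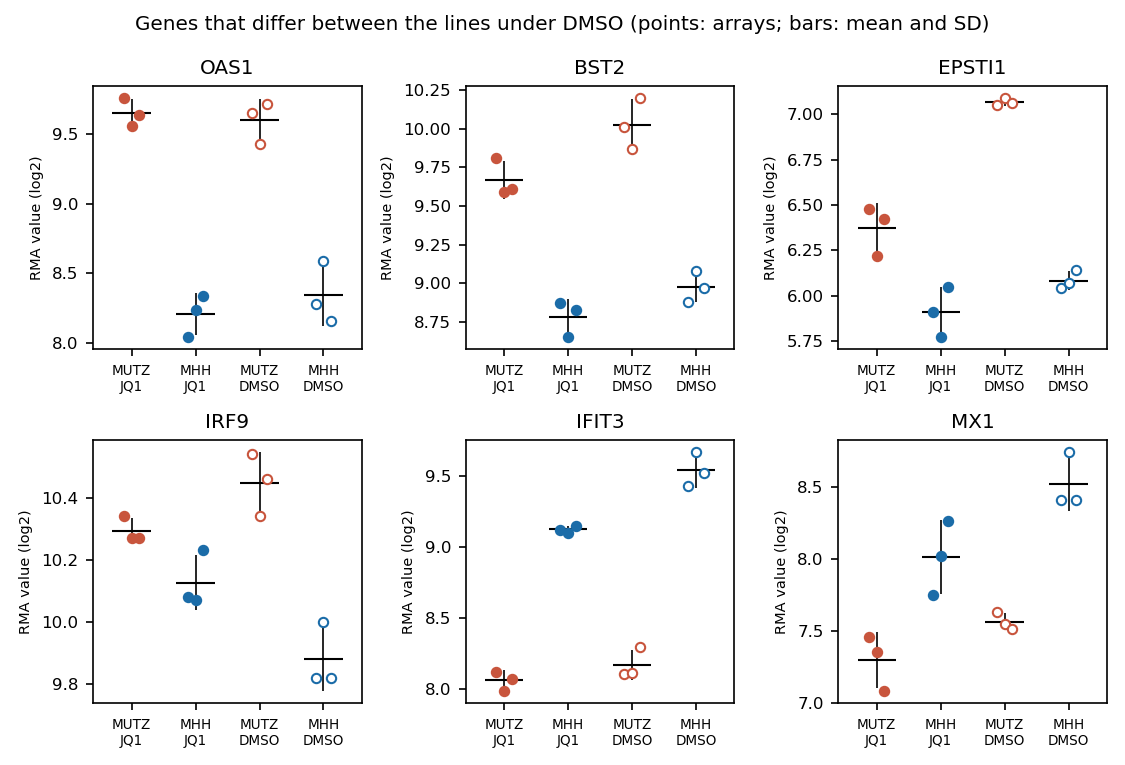
Log2 intensity (y axis) on each array of members that differed between the lines, 1 panel per gene, with MUTZ-5 left of MHH-CALL4 within each treatment; points are arrays, and lines show the group mean and SD. OAS1, BST2 and EPSTI1 are higher in MUTZ-5 and IFIT3 and MX1 lower, with both treatments.

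Other genes of the pathway were taken from lists compiled with earlier results of these data known. Their counts stand against 9.06% of all genes higher and 13.0% lower in MUTZ-5, and 11.0% higher and 17.5% lower in MHH-CALL4. Of the interferon genes themselves 9 of 21 were measured. IFNG fell by 0.33 in MUTZ-5 (limma adjusted p = 0.032), at low averages of 4.49 with JQ1 against 4.82 with DMSO. IFNA8 rose by 0.45 in MHH-CALL4 (limma adjusted p = 0.038). IFNA8 stood at 7.69, 7.49 and 8.28 with JQ1 against 7.39, 7.47 and 7.24 with DMSO, and its call was lost without the arrays that stood apart (0.23, limma adjusted p = 0.07). Among 9 measured receptors and proximal signalling genes, 2 rose and 0 fell in MUTZ-5, against 22.0% of all genes called, and 2 rose and 2 fell in MHH-CALL4, against 28.5%. The 2 that rose in MHH-CALL4 were JAK1 and IRF9, and IRF9 is also a member of the main list. Its call there was lost without the arrays that stood apart (0.19, limma adjusted p = 0.1). JAK1, the receptor-bound kinase, rose by 0.63 in MUTZ-5 and 0.40 in MHH-CALL4, whereas the receptor chain IFNAR1 differed by -0.16 in MUTZ-5, which did not pass, and fell by 0.29 in MHH-CALL4. Among 8 measured interferon regulatory factors, of which IRF7 and IRF9 are also members of the main list, IRF7 rose in both lines, IRF9 rose in MHH-CALL4, and IRF5 fell by 0.39 in MHH-CALL4 and differed by -0.0061 in MUTZ-5.

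Genes that sense foreign nucleic acid, and the adaptors that pass the signal on, gave 0 higher, 6 lower and 10 not passed among 16 measured in each line, against 13.0% of all genes lower in MUTZ-5 and 17.5% in MHH-CALL4. TLR7, an endosomal RNA receptor, fell by 0.83 in MUTZ-5 and 0.95 in MHH-CALL4, and CGAS, the cytosolic DNA sensor, by 0.51 and 0.64. The kinases TBK1 and IKBKE, which activate interferon regulatory factors, fell by 0.47 and 0.39 in MUTZ-5 and by 0.28 and 0.32 in MHH-CALL4. Without the arrays that stood apart, the calls of CGAS in MUTZ-5 (-0.36, limma adjusted p = 0.061) and TBK1 in MHH-CALL4 (-0.22, 0.056) were lost. Among 6 measured feedback inhibitors 3 fell and 0 rose in each line, against the same 13.0% and 17.5%. They were the phosphatase PTPN6 (-1.16 in MUTZ-5, -1.49 in MHH-CALL4), the JAK inhibitor SOCS1 (-0.41 and -0.66) and TRIM27 (-0.31 and -0.43), whose MUTZ-5 call was lost without the arrays that stood apart (-0.22, limma adjusted p = 0.091).

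Of 29 further measured interferon-stimulated genes, 9 fell and 0 rose in MUTZ-5, and 11 fell and 0 rose in MHH-CALL4, against 13.0% and 17.5% of all genes lower. The list's median differences were -0.16 and -0.20, against 0.0084 and 0.0065 over all genes. The largest were those of TRIM14 (-1.25 in MUTZ-5, -1.18 in MHH-CALL4), the RNA exonuclease PNPT1 (-0.91 and -1.26), RTP4 (-0.90 and -1.21) and APOL6 (-0.89 and -0.90). Among 17 measured antigen presentation and interferon-gamma-type genes, 5 fell and 0 rose in MUTZ-5, against 13.0% lower and 9.06% higher over all genes, and 7 fell and 3 rose in MHH-CALL4, against 17.5% and 11.0%. Without the arrays that stood apart 5 fell and 3 rose in MUTZ-5, against 25.3% of all genes called in that fit. In MHH-CALL4 7 fell and 2 rose, against 30.5%. GBP4, an interferon-induced GTPase, fell by 0.80 in MUTZ-5 and 0.87 in MHH-CALL4, and the immunoproteasome subunit PSMB8 fell by 0.45 and 0.59. With DMSO, 6 genes of this last list were higher and 0 lower in MUTZ-5 than in MHH-CALL4, against 11.9% and 11.5% of all genes. In the fit without the arrays that stood apart 7 were higher and 3 lower, against 30.5% of all genes called.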

How the data were processed

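RNA from 12 samples (2 lines, 2 treatments, 3 samples each) was read on arrays. The deposited values are log2 intensities that the authors summarised per gene-level row by RMA with Affymetrix Expression Console, per the submitters' processing notes, in a core form (22011 rows) and an extended form (133672 rows). Software versions, and whether all arrays were normalised together, are not given in the sources used here. The core values were used without further normalisation. Rows with 1 gene symbol were kept (14432), and where 197 genes had several rows the row with the highest mean was taken, leaving 14232 genes. Every log2 value was used as deposited.

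One limma model (version 3.58.1, R 4.3.3) was fitted over all genes and arrays, with lmFit and eBayes, for JQ1 minus DMSO in each line, their difference, and MUTZ-5 minus MHH-CALL4 under each treatment. P-values were adjusted by Benjamini-Hochberg over all genes. No detection calls were used, and the number of arrays limits the precision. The members and lists were chosen with earlier results of these data known. All 12 values were printed for members called in either line with an absolute log2 difference of at least 0.5, called for the difference of JQ1 effects, or among the 4 largest line differences under DMSO; other printed members were chosen after their values were seen. From each other list up to 4 called genes with the largest JQ1 effect were named. Neighbouring members were compared by exact permutation. Promoters are RefSeq's. Replicate numbers were not used to pair JQ1 with DMSO samples in the main model. Deviations of same-numbered JQ1 and DMSO samples from their group means correlated at -0.174, -0.213 and -0.436 for MUTZ-5, whereas MHH-CALL4 gave 0.299, 0.0703 and 0.229. Between the lines, same-numbered samples correlated at -0.198, -0.0921 and -0.258 with DMSO and at 0.225, 0.202 and 0.469 with JQ1, all over the limit of 0.1 with JQ1 only, where a paired fit was added. With JQ1, replicates 1 and 2 of differing number also correlated between the lines, at 0.213 and 0.222. The numbers were thus not shown to mark pairs, and the labels state none.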

Additional observations from a re-analysis of the deposited data

Results flagged for a closer look

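CIITA, the activator of MHC class II genes and a gene of the antigen presentation list, differed in its JQ1 effect between the lines by an interaction term of 0.58 (SE 0.097, limma adjusted p = 0.0066). It differed by -0.14 in MUTZ-5, which did not pass (limma adjusted p = 0.21), and fell by 0.71 in MHH-CALL4 (limma adjusted p = 4.8e-06). None of the 34 members met a rule for a closer look, and no such rule was applied to outlying samples in groups of 3. The arrays that stood apart were seen along the main axis of variation within groups, not by a rule.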

How the results depend on the processing

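Of 56 member results that passed, 38 kept their call under every alternative that gave a value, and 0 of 1119 recomputed values changed direction with a call. Leaving out 1 array at a time gave 9 to 14 members called in MUTZ-5, 10 to 16 in MHH-CALL4, 12 to 16 between lines with DMSO and 11 to 16 with JQ1. In the same order, the shares of all genes ran from 16.2% to 22.9%, 20.7% to 32.1%, 18.5% to 26.0% and 16.0% to 22.4%. For the difference of JQ1 effects these fits gave 0 to 1, against 1.1% to 2.53% of all genes. The 1 was EPSTI1 without MHH-CALL4 JQ1 replicate 2 (-0.59, limma adjusted p = 0.044). That count was 1 with median centring (EPSTI1, -0.52, limma adjusted p = 0.044) and 2 with cyclic loess (EPSTI1, -0.47, 0.042, and OASL, 0.37, 0.044), and the cause was not tested. Of all genes, 1.78% and 2.1% were called there. Median centring moved the lower share of called members in MUTZ-5 to 66.7% in place of 76.9%, and cyclic loess that in MHH-CALL4 to 80.0% in place of 69.2%. Both moved the lower share between lines with DMSO to 50% in place of 40.0%, as cyclic loess did with JQ1. Over all genes, median centring moved the lower share to 48.5% in place of 58.9% in MUTZ-5 and to 51.5% in place of 61.5% in MHH-CALL4. Keeping genes at or above the median level left 22 members, of which 12 were called in MUTZ-5 (42.8% of all genes) and 11 in MHH-CALL4 (47.2%). With the replicate number as a block, 12 members were called in MUTZ-5, against 19.7% of all genes, and 12 in MHH-CALL4, against 25.9%. That fit called 0 members for the difference, against 1.24% of all genes. Between lines it called 13 with each treatment, against 21% of all genes with DMSO and 18% with JQ1. Outside the JQ1 arrays of the lines the samples share only a number. Extended summaries gave lower absolute differences for IFI6, MX1 and EPSTI1 between the lines with DMSO (0.27, -0.46 and 0.58).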
